A study of Mus musculus with 33 samples.

Results

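The Zscan4 and Usp17l genes of the mouse 2-cell embryo were followed in a culture series that turns embryonic stem cells into tendon-like or fibrocartilage-like cells. The set held 10 genes, Zscan4a to Zscan4f and Usp17la, Usp17lb, Usp17lc and Usp17le, taken by symbol from the 17120 genes of the count table, and each of the 10 was found once. The genes had been chosen by their CPM values under CD1530 in these same libraries, so their own levels are described here without a test. Messenger RNA was sequenced in 33 libraries that form 11 groups of 3. Embryonic stem cells carrying a Scleraxis-GFP reporter (ScxGFP) had been aggregated with a BMP inhibitor, then driven towards paraxial mesoderm (PM) with a Wnt agonist and the same BMP inhibitor, and the PM group was collected as embryoid bodies on day 6 (D6). The study's enhanced protocol also gives a retinoid ligand during the PM phase, whereas the labels list no condition for PM, so whether these cultures met one before D6 is not settled by the sources used here. The other 10 groups continued from PM in medium that always held TGFβ1, FGF2 and SAG, a smoothened agonist that switches on hedgehog signaling. In the tendon condition this medium was given CD1530, which activates RARγ, a receptor for retinoic acid. In the fibrocartilage condition it was given AGN 193109 (AGN), which binds retinoic acid receptors and pushes their activity below the resting level. The ligands were used at different concentrations. Both conditions were collected as cell layers on 5 days, the first at D6.25 and D6.75, then at D7.5, D8.5 and lastly D10. No group received the medium without a retinoid ligand, so a difference between CD1530 and AGN cannot be divided between the agonist and the inverse agonist. PM libraries come from another form of culture than the rest, and the step from PM to induction and the step from aggregates to layers cannot be told apart.

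Zscan4 genes encode nuclear proteins with a SCAN domain and zinc fingers that are made in the mouse embryo at the 2-cell stage, when the zygotic genome is first read. In cultured embryonic stem cells they are on in a small fraction of cells at a time, the 2-cell-like cells, where they are linked to telomere lengthening and genome stability. Usp17l genes encode deubiquitinating enzymes, proteases that take ubiquitin off other proteins, and belong to the same burst of early embryonic transcription. The transcription factor Dux, the chromatin proteins Dppa2 and Dppa4 and several chromatin repressors are known regulators of this state.

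On GRCm38 all 10 genes lie on chromosome 7, in a pair of clusters. The 6 Zscan4 genes span chr7:10794242-11402318, a stretch of 608 kb, and the 4 Usp17l genes span chr7:103415072-104862667, a stretch of 1448 kb. GENCODE M21 lists 9 of them as protein coding and Zscan4a as an unprocessed pseudogene. Within the Zscan4 genes, the longest annotated transcripts were 72.7 to 97.9% identical in 15 pairs, and within the Usp17l genes 53.6 to 80.7% identical in 6 pairs. The share of 150-base stretches of a gene's transcripts that also occur letter for letter in a transcript of another gene was 77.4% for Zscan4f, 75.0% for Zscan4e, 66.4% for Zscan4b, 61.0% for Zscan4c, 25.1% for Zscan4a and 13.0% for Zscan4d. For the Usp17l genes it was 29.4% for Usp17lc and at most 2.23% for the others. Reads were paired, 150 bases from each end, and the treatment of reads that match several genes was not stated, so the split of counts among Zscan4 genes is uncertain gene by gene and the sum over the family is the steadier measure.

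Promoter sequence was available for 7 of the 10 genes, from RefSeq on GRCm38.p6, and 4 of them are shown because they carry the contrast between the families that have the same time course below. Zscan4c and Zscan4d are the Zscan4 genes with the most counts, and Usp17lb and Usp17la lie beside each other on opposite strands. Each stretch is given on the strand of its gene and ends before both the RefSeq and the GENCODE start: Zscan4c at chr7:11005495-11005744 (plus strand), Zscan4d at chr7:11166160-11166398 (minus strand), Usp17lb at chr7:104842604-104842833 (minus strand) and Usp17la at chr7:104856766-104857008 (plus strand). Capitals mark TATAAAAG, the letters of a TATA box, and GGTCANNNTGACC, a pair of facing half-sites for nuclear receptors.
Zscan4c: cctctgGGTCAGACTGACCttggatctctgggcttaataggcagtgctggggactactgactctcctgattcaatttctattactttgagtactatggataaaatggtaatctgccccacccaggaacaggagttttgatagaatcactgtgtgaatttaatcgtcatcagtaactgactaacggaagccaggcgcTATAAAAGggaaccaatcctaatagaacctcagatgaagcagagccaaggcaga
Zscan4d: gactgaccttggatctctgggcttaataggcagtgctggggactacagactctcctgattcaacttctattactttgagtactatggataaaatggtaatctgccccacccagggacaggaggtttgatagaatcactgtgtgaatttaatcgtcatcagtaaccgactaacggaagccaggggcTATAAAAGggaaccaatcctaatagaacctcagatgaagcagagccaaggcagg
Usp17lb: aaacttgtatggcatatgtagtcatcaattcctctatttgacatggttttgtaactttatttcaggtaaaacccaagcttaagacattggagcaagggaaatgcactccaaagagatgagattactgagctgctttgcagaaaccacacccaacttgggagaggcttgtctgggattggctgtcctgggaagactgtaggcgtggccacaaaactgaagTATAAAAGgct
Usp17la: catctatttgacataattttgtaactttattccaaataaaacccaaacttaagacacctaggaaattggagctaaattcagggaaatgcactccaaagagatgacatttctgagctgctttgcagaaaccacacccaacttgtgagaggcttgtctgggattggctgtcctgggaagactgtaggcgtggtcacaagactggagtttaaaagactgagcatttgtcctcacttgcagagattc

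The promoters of the families were alike within each and not between them. Over 300 bases, the 4 available Zscan4 promoters were 77.5 to 95.7% identical in 6 pairs and the 3 Usp17l promoters 62.2 to 76.1% identical in 3 pairs, against 47.5 to 50.6% in the 12 pairs across the families. The motifs were chosen after the sequences had been read and were searched on both strands. TATAAAAG was present in 4 of 4 Zscan4 and 2 of 3 Usp17l promoters and in 1.7% of 32817 promoters of the same length. It began 31 bases upstream of the RefSeq start in Zscan4b, Zscan4f and Usp17lb. In Zscan4c, Zscan4d and Usp17lc it began 54, 65 and 88 bases upstream. GGTCANNNTGACC was present in 3 of 4 Zscan4 promoters (not in that of Zscan4d, whose window opens with the spacer and the right-hand half-site, so that the bases before them were not searched), in 0 of 3 Usp17l promoters and in 0.0701% of all promoters. The single half-site AGGTCA, which overlaps the longer motif in some of them, was present in 4 of 4, 0 of 3 and 16.3%. The direct repeats typical of retinoic acid receptor sites, AGGTCANNNNNAGGTCA and AGGTCANNAGGTCA, and the Dux core GATTNAATC had no match in the 7 windows, and were in 0.00914%, 0.00914% and 0.268% of all promoters. A match of letters is a description of the window, and an absent match says only that these letters are not in it.

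Total counts per library were 17.1 to 22.8 M, except 38.1 M in AGN D8.5 replicate 1, and replicates correlated across genes with r of 0.9927 to 0.9977. Levels are given as CPM, the count relative to the library size after scaling by the trimmed mean of M-values (TMM), as mean ± SD with n = 3 libraries unless each library is given. A total of 3 counts over a group corresponded to 0.0398 to 0.0607 CPM. Folds between groups are ratios of pooled counts with a 95% exact interval that covers counting error only, and where the lower group had no count, the fold is a lower bound set against 3 counts over that group. The deposited table had been filtered on low values, since no gene in it had fewer than 3 libraries at or above 0.611 CPM. None of the 10 genes reached this level outside CD1530 at D7.5 to D10, so each entered the table through the condition in which it was high.

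The 10 genes were at or near 0 in PM and stayed there under AGN. The 3 PM libraries held 5, 3 and 5 counts of all 10 genes together, and 21 of 30 values (gene by library) were 0. Under AGN, 103 of 150 values were 0, 6 were above 3, and all 15 libraries together held 94 counts. The summed level was 0.217 ± 0.067 CPM in PM and, from D6.25 to D10 under AGN, 0.208 ± 0.1, 0.241 ± 0.065, 0.436 ± 0.27, 0.369 ± 0.23 and 0.16 ± 0.12 CPM. The AGN libraries of D7.5 and D8.5 overlapped with those of PM. The ratio of AGN to PM was 2.1 (1.05 to 4.44) at D7.5, from 27 and 13 counts, and 1.92 (0.974 to 3.99) at D8.5, from 31 and 13 counts. The highest single value under AGN was 12 counts of Usp17le in the deep library AGN D8.5 replicate 1, where the other replicates held 2 and 0. In bulk samples a low level in many cells and a higher level in few cells cannot be told apart, and neither can fewer such cells and less RNA in each.

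Under CD1530 the summed level and Usp17le first stood apart from PM and AGN at D6.75, and the other 9 genes at D7.5. At D6.25 the 3 libraries held 0, 6 and 1 counts of all 10 genes, a level of 0.103 ± 0.14 CPM that overlapped with PM and AGN. At D6.75 they held 14, 10 and 15 counts, or 0.63, 0.455 and 0.64 CPM, and each lay above the 3 PM libraries (0.142 to 0.269 CPM) and the 3 AGN libraries (0.168 to 0.291 CPM). Usp17le supplied 14 of these 39 counts. For a single gene this separation is common at D6.75, since 36.6% of all genes lay above PM and 11.5% above AGN in the same way. At D7.5 the summed level was 11.2, 10.6 and 9.97 CPM against 0.165, 0.697 and 0.444 CPM under AGN, a ratio of 23.4 (15.9 to 35.7). For 10 of 10 genes the 3 CD1530 libraries of D7.5 lay above the 3 of AGN, as for 23.1% of all genes, and above the 3 of PM, as for 41% of all genes. The lowest of these levels were Usp17lc with 0.762, 0.232 and 0.303 CPM and Zscan4b with 0.544, 0.417 and 0.347 CPM. The highest was Zscan4d with 2.56, 1.62 and 1.69 CPM.

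**Figure D1:**
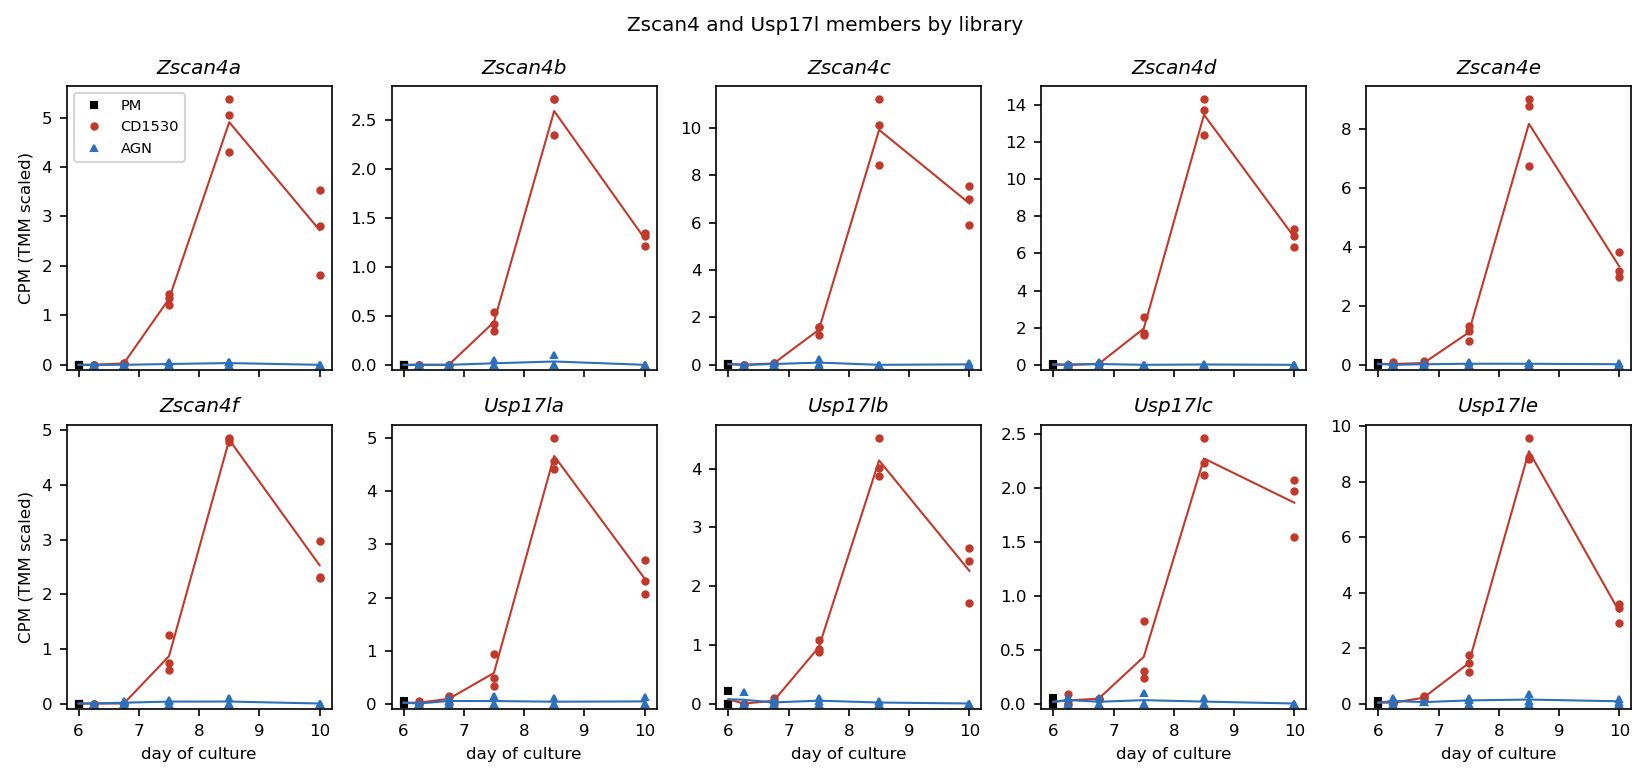
Level of each of the 10 genes in CPM (TMM scaled, linear axes that differ between panels) against the day of culture, with 1 point per library and lines through the group means. PM is at D6, CD1530 libraries are circles and AGN libraries triangles. In each panel the CD1530 libraries are highest at D8.5 and the AGN libraries stay along the bottom.

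D8.5 was the day of the highest level for 10 of 10 genes. The summed level under CD1530 was 65.6, 64.2 and 62.3 CPM, or 64.1 ± 1.7 CPM, which was 6.08 times D7.5 (5.6 to 6.62), 299 times PM (175 to 562) and 156 times AGN at D8.5 (110 to 230). Each of the 10 genes was higher in all 3 CD1530 libraries of D8.5 than in any of D7.5, as were 26.2% of all genes, than in any of AGN at D8.5, as were 26%, and than in any PM library, as were 42.3%. The Zscan4 genes summed to 43.9 ± 1.5 CPM and the Usp17l genes to 20.2 ± 0.18 CPM. The deep library AGN D8.5 replicate 1 held the highest summed level of its group, 0.542 CPM, against 0.459 and 0.106 CPM in the other replicates.

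Zscan4d had the most counts of the set. Its counts at D8.5 were 246, 233 and 242 under CD1530 and 0, 0 and 1 under AGN, or 13.7, 12.4 and 14.3 CPM against 0, 0 and 0.053 CPM. With a single AGN count, the ratio of 1010 had an interval from 181 to 40100. Zscan4c, the gene best known as a marker of 2-cell-like cells, had 201, 190 and 143 counts under CD1530, or 11.2, 10.1 and 8.43 CPM, and no count under AGN, which makes it at least 250-fold higher. Zscan4e had 157, 169 and 114 counts against 2, 1 and 0, and was 206 times higher (70.1 to 1000). In each of these genes the conditions lay far apart.

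The other Zscan4 genes had fewer counts. Zscan4a had 77, 95 and 91 counts under CD1530 and 2, 1 and 0 under AGN, a ratio of 123 (41.7 to 601). Zscan4f had 87, 91 and 81 against 4, 0 and 0, a ratio of 91.0 (35.1 to 337). Zscan4b had 42, 51 and 46 against 0, 2 and 0, a ratio of 97.7 (26.5 to 815). The counts under CD1530 and AGN did not overlap in any of them.

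Among the deubiquitinase genes, Usp17le led and was also the one with the most counts under AGN. It had 158, 180 and 151 counts, or 8.82, 9.58 and 8.9 CPM, under CD1530 and 12, 2 and 0 under AGN, a ratio of 49.1 (29.0 to 90.5). Usp17la had 82, 83 and 85 counts against 0, 2 and 0, a ratio of 176 (48.1 to 1460). Usp17lb had 81, 73 and 68 against 0, 1 and 0, a ratio of 312 (55.4 to 12400). Usp17lc, which lies more than a megabase from the rest of its family, had 44, 42 and 36 against 0, 0 and 1, a ratio of 172 (30.2 to 6830).

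Per length, the order of the levels at D8.5 did not follow the families, but it is uncertain where genes share sequence. Exon length counts stretches that also occur in other genes, 13.0% of 150-base stretches for Zscan4d against 77.4% for Zscan4f. The treatment of reads from such stretches was not stated. Dividing CPM by the exon length of each gene gave 5.93 ± 0.42 CPM per kb for Zscan4d, whose 3 libraries lay above those of every other member. Usp17le (4.58 ± 0.21), Zscan4e (4.55 ± 0.7) and Zscan4c (4.36 ± 0.62 CPM per kb) followed, and their libraries overlapped. Usp17lb (2.65 ± 0.22), Zscan4f (2.46 ± 0.022), Zscan4a (2.15 ± 0.24), Usp17la (1.76 ± 0.12) and Zscan4b (1.44 ± 0.12 CPM per kb) came next, each with its 3 libraries above those of the gene after it. Usp17lc was the lowest, at 0.926 ± 0.069 CPM per kb. The range from the lowest to the highest gene was thus narrower than the range of any of them between CD1530 and AGN.

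**Figure D2:**
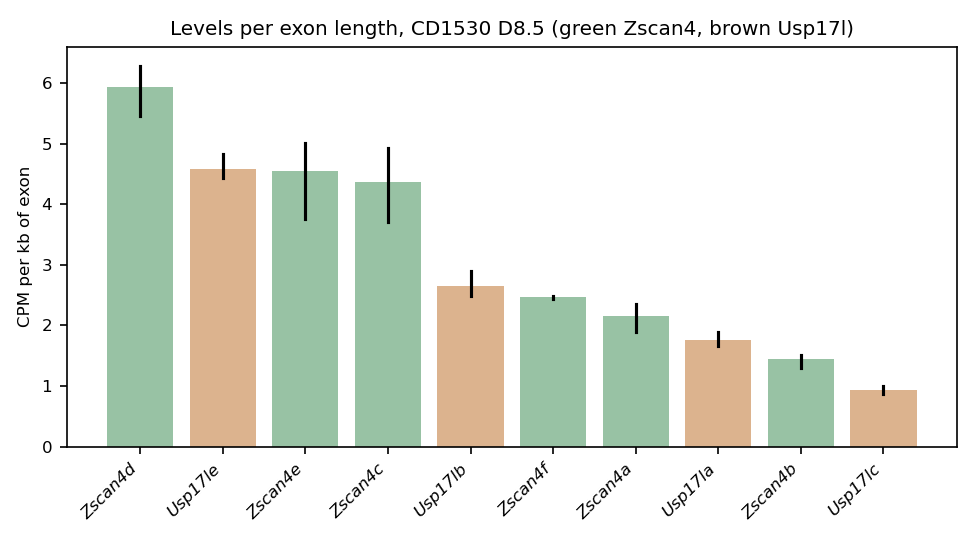
CPM per kb of exon at D8.5 under CD1530 for the 10 genes, ordered by mean. Bars are means of 3 libraries and start at 0, black lines run from the lowest to the highest library, green marks Zscan4 and brown Usp17l genes. Zscan4d stands at 5.93 and Usp17lc at 0.926 CPM per kb. Exon length includes stretches shared with other genes.

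At D10 the genes were about midway between 0 and their D8.5 level. The summed level was 34.0, 31.6 and 34.4 CPM, or 33.3 ± 1.5 CPM, and D10 over D8.5 was 0.521 (0.492 to 0.551). The Zscan4 sum stood at 0.537 of its D8.5 level (0.501 to 0.574) and the Usp17l sum at 0.485 (0.437 to 0.538), and these intervals overlapped. For 10 of 10 genes all 3 libraries of D10 lay below all 3 of D8.5, as for 34.1% of all genes, and above all 3 of D7.5, as for 34.9%. AGN at D10 held 1, 2 and 5 counts of all 10 genes, and the summed level was 206 times higher under CD1530 (104 to 478). Against AGN at D10, 10 of 10 genes were higher in every CD1530 library, as were 27.4% of all genes.

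The part of the D8.5 level left at D10 ranged from 36.4% for Usp17le to 81.9% for Usp17lc, with a median of 51.8%. Usp17le went from 8.82, 9.58 and 8.9 CPM at D8.5 to 3.43, 2.92 and 3.6 CPM at D10, a ratio of 0.364 (0.306 to 0.432). Zscan4e went from 8.77, 8.99 and 6.72 CPM to 2.98, 3.19 and 3.82 CPM, a ratio of 0.405 (0.339 to 0.482). At the other end, Zscan4c went from 11.2, 10.1 and 8.43 CPM to 7.53, 6.99 and 5.9 CPM, a ratio of 0.687 (0.601 to 0.785). The split of counts among the Zscan4 genes is uncertain. Usp17lc went from 2.46, 2.23 and 2.12 CPM to 2.07, 1.54 and 1.97 CPM, and with 122 and 104 counts its ratio of 0.82 had an interval (0.625 to 1.07) that includes no difference. The remaining genes were at 49.8 to 55.5% of D8.5. The D7.5 levels, on the way up, were 12.4% (Usp17la) to 27.1% (Zscan4a) of those at D8.5, with a median of 16.4%.

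**Figure D3:**
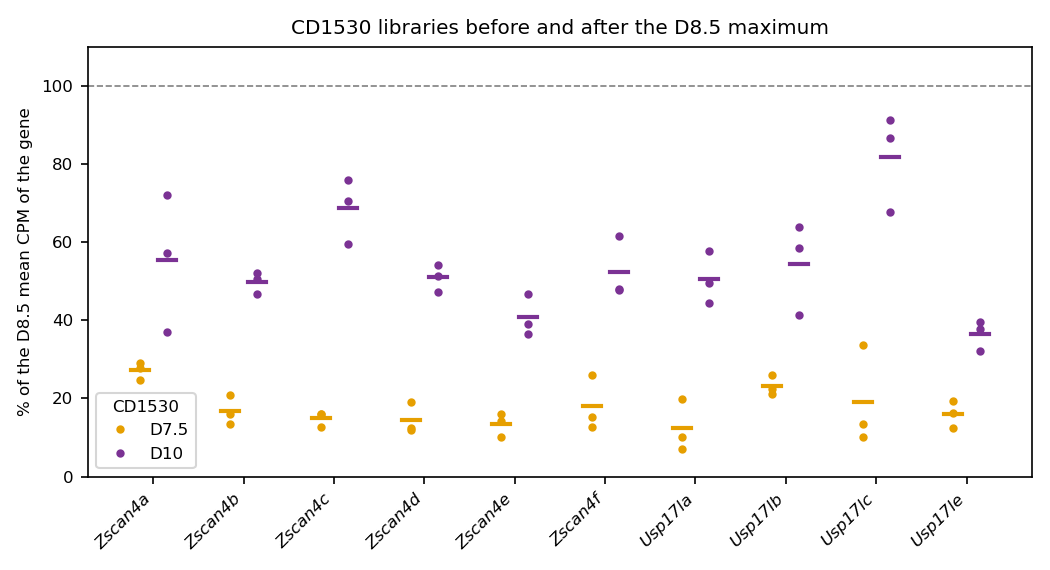
Level of each gene in the CD1530 libraries of D7.5 (orange) and D10 (purple) as a percentage of its mean at D8.5, with 1 point per library and a bar at the mean. The dashed line is the D8.5 mean. D7.5 means run from 12.4 to 27.1% and D10 means from 36.4 to 81.9%.

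The split of the pool between the families stayed alike while its size moved, and the shares of 5 of 10 genes did not overlap between neighbouring days. The Zscan4 genes held 67.7 ± 3.5% of all member counts at D7.5, 68.5 ± 0.58% at D8.5 and 70.7 ± 2.4% at D10, with overlapping libraries. The size of this share depends on how reads from shared stretches were treated, which was not stated, since most Zscan4 genes share more sequence than the Usp17l genes. Zscan4d had the largest mean share on each of these days, at 18.4 ± 3.9%, 21.0 ± 1.8% and 20.6 ± 1.7%, but its libraries overlapped with those of Zscan4c at D7.5 (11.2 to 16.1%) and D10 (17.2 to 22.1%) and of Usp17le at D7.5 (11.3 to 16.7%). Within the pool, Zscan4c held 17.1, 15.7 and 13.5% at D8.5 against 22.1, 22.1 and 17.2% at D10. Usp17le held 13.4, 14.9 and 14.3% at D8.5 against 10.1, 9.23 and 10.5% at D10. Zscan4a held 12.1, 11.4 and 14.3% at D7.5 and 6.55, 7.87 and 8.61% at D8.5. Usp17lb went from 7.77, 8.77 and 10.9% at D7.5 to 6.89, 6.05 and 6.43% at D8.5, and Usp17lc from 3.74, 3.48 and 3.41% at D8.5 to 6.08, 4.88 and 5.72% at D10. In these 5 genes, singled out after the values were seen, the libraries did not overlap between the neighbouring days, and in the other 5 they did. For Zscan4c the gap lay between 17.1 and 17.2%. Shares of a pool depend on each other, and with so few libraries some can separate by sampling alone. A shift of single genes was not tested.

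The further family genes in the table, annotated copies of Zscan4 with pseudogene names, had the same course. Like the members, Zscan4-ps1, Zscan4-ps2 and Zscan4-ps3 entered the table through the CD1530 libraries in which they were high, so they are described without a test. In PM and under AGN none of the 18 libraries held more than 3 counts of any of them. At D8.5, Zscan4-ps3 was at 5.08, 6.54 and 5.9 CPM under CD1530 and without a count under AGN, at least 147-fold higher. At D10 it was at 2.98, 3.41 and 4.27 CPM under CD1530. Zscan4-ps2 went from 5.31, 5.11 and 6.01 to 2.88, 2.48 and 2.53 CPM and Zscan4-ps1 from 2.46, 3.3 and 2.65 to 1.87, 1.65 and 1.97 CPM, so that D10 lay below D8.5 in all 3. GENCODE M21 lists these genes as protein coding, and their reads may be shared with the members. Usp17ld, the remaining relative, was not analysed here.

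Other genes of the 2-cell-like program that lie elsewhere in the genome were then examined. The list held 29 genes, of which 14 were in the table, and like the members a gene silent elsewhere could enter the table only through the libraries in which it was high. It also shares genes with a module that the study derived from these libraries, so its direction is not independent evidence. The counts of calls below describe the list and do not test that direction. Of the 14, 12 were higher under CD1530 at D7.5, 13 at D8.5 and 13 at D10, and none was lower, beside 15.2%, 20.4% and 22.7% of all genes higher. At D6.25 and at D6.75 the count was 0 of 14 with edgeR, 0 at an unadjusted p under 0.05 and 0 with DESeq2, which gave no adjusted p for 13 of the 14 at D6.25, beside 1.92% and 18% of all genes. On these days 5 and 2 of the 14 had no count under CD1530, and 6 and 6 had none under AGN. A change in genes so near 0 could hardly be called, so these counts do not show when the list began to rise. The median log2 ratio at D8.5 was 5.51 with genes absent under AGN at their bound, and the median of all genes was 0.001. Pramef25, of the PRAME family, was at 5.58, 4.42 and 4.48 CPM under CD1530 and without a count under AGN at D8.5, at least 121-fold higher. Gm12794, of the same family, was at least 75.9-fold higher and Gm13078 at least 54.4-fold higher. Zfp352, a zinc finger gene of the 2-cell embryo, had 53 counts under CD1530 and 0 under AGN at D8.5, at least 24.8-fold higher, and the step from D8.5 to D10 in CD1530 did not pass the test (1.06, 1.17 and 0.707 CPM, then 1.06, 1.38 and 1.41 CPM). The interferon-responsive gene Sp110 was the exception, with 9.04 ± 0.48 CPM under CD1530 and 8.28 ± 0.88 CPM under AGN (log2 difference 0.14 ± 0.11 SE, adjusted p = 0.326).

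Between D8.5 and D10 in CD1530, 10 of the 14 fell, 1 (Sp110) rose and 3 (Zfp352, Tmem92 and Gm13078) did not pass, while 57.3% of all genes were called. Of those calls 47.8% were higher at D10, and 35.6% with scaling by library size only. Without CD1530 D8.5 replicate 3, 7 of the 14 were called in place of 11. The median log2 difference of this step was -0.82, and that of all genes -0.035. Gm12794 was at 0.321 of its D8.5 level (0.231 to 0.439), lower than any of the 10 members, and Pramef25 at 0.55 (0.446 to 0.676), near their median. The step differed between CD1530 and AGN for 0 of 14 genes with edgeR and 0 with DESeq2, and for 1 at an unadjusted p under 0.05, where 26.8% of all genes were called. Under AGN, 5 of the 14 had no count at D8.5 and 6 had none at D10, so this comparison had little to measure. Within AGN, Sp110 was the 1 gene of the 14 that passed from PM to D8.5 (log2 2.82), where 76% of all genes did (38.3% higher, 37.7% lower), and from D8.5 to D10 (log2 1.1), where 59.4% did (29.9% higher, 29.5% lower). Of these AGN calls 50.4% were higher at D10, and 38.7% with library size only.

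**Figure D4:**
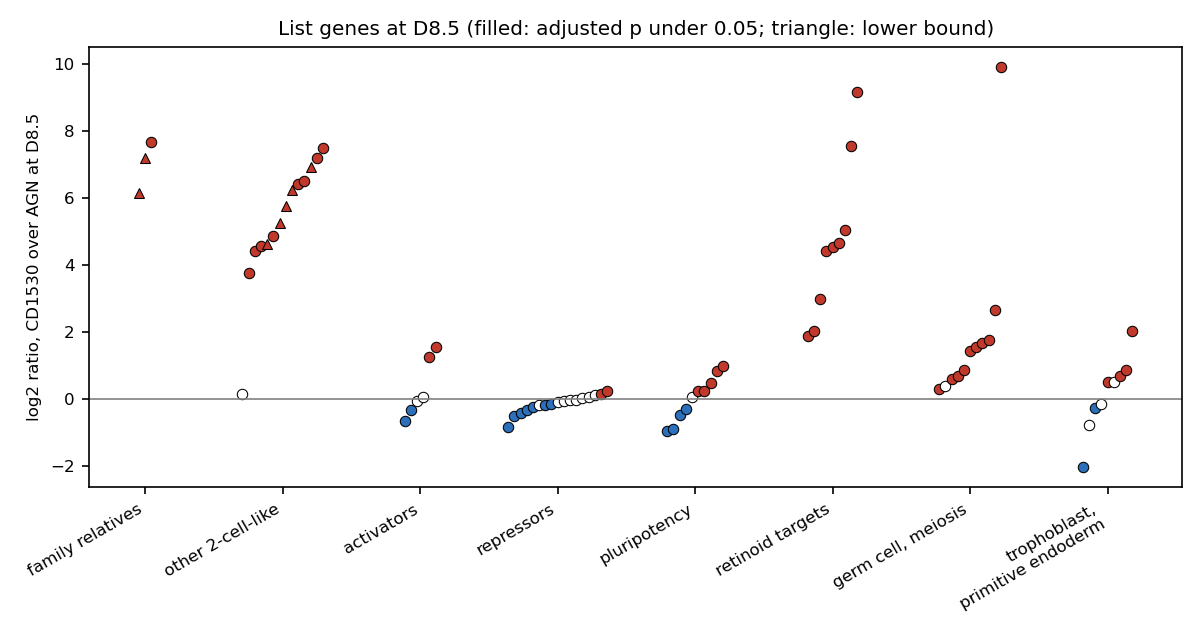
Log2 ratio of pooled counts, CD1530 over AGN at D8.5, for the genes of 8 lists, 1 symbol per gene. Filled symbols passed an adjusted p of 0.05 in the edgeR fit (red higher, blue lower under CD1530), open symbols did not, and triangles are lower bounds for genes with no count under AGN. The family relatives and 13 of 14 other 2-cell-like genes stand above every activator and repressor. The family relatives entered the table through CD1530 libraries, as could other 2-cell-like genes silent elsewhere. Their height and filling are therefore a description and no test.

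The known activators did not move as 1 group. Dux itself (Duxf3) was not analysed here, and 6 of 7 listed activators were in the table. At D8.5, 2 were higher under CD1530, 2 were lower and 2 (Nelfa and Trp53) did not pass, where 40% of all genes were called. Nelfa passed without CD1530 D8.5 replicate 1 (adjusted p = 0.0463). Dppa2, which with Dppa4 opens the way for Dux, was at 47.2, 47.8 and 44.5 CPM under CD1530 and 19.3, 19.4 and 19.1 CPM under AGN at D8.5, a log2 difference of 1.27 ± 0.06 (SE, adjusted p = 1.26e-21). The Dppa2 difference was already called at D6.25 (log2 0.66 ± 0.06, adjusted p = 1.16e-10), a day when none of the 10 genes separated. The 10 genes together held 7 counts under CD1530 on that day, so a modest change in them could hardly be seen. Which came first was not tested. Its highest level under CD1530 was at D7.5 (63.5 ± 1.1 CPM), 1 sampling day before that of the members, and from D8.5 to D10 it fell by 1.8 on the log2 scale, to 13.4 ± 0.56 CPM. Its partner Dppa4 was lower under CD1530 at D8.5 (47.2 ± 0.47 against 59.5 ± 2.8 CPM, adjusted p = 8.84e-07), as was the oocyte factor Dppa3 (12.8 ± 0.78 against 20.1 ± 0.61 CPM, adjusted p = 1.15e-08). Tbx3, a T-box factor, was at 30.7 ± 0.52 against 10.7 ± 1.1 CPM (log2 1.54 ± 0.08, adjusted p = 1.89e-20).

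Of the 17 repressors listed, none was called at D6.25, where only 1.92% of all genes were called and 0.695% lower. At D6.75 7 were called, each lower under CD1530, where 18% of all genes were called and 10% lower. With a fit of the compared groups only, 1236 genes were called at D6.75 in place of 3076. At D7.5 8 were called, 1 higher and 7 lower under CD1530, where 26.9% of all genes were. At D8.5, 9 were called, 2 higher (Kdm1a and Zmym2) and 7 lower, beside 20.4% and 19.6% of all genes. The Zmym2 call was lost without CD1530 D8.5 replicate 1 (adjusted p = 0.0614). At D10, 8 were called, 1 higher (Rnf2) and 7 lower, where 46.6% of all genes were (22.7% and 24%). The differences were small, with a median log2 value of -0.06 at D8.5 and a range from -0.85 to 0.25. L3mbtl2, a subunit of a noncanonical Polycomb complex, was at 52.3, 48.9 and 49.4 CPM under CD1530 and 84.4, 93.7 and 93.2 CPM under AGN (log2 -0.85 ± 0.05, adjusted p = 1.78e-18). Pcgf6 of the same complex was at 31.5 ± 2.1 and 43.9 ± 2.1 CPM (log2 -0.49 ± 0.06, adjusted p = 5.76e-09), and Chaf1b, a histone chaperone subunit, at 62.4 ± 3.0 and 83.5 ± 2.0 CPM (log2 -0.42 ± 0.05, adjusted p = 3.1e-10). All 3 were at their highest in PM, where the 10 genes were near 0, and all 3 fell further by D10 in both conditions. For L3mbtl2, Pcgf6 and Chaf1b the log2 steps from D8.5 were -0.74, -0.74 and -0.74 in CD1530. In AGN they were -1.09, -0.84 and -0.61. A link of these genes to the 10 was not tested.

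**Figure D5:**
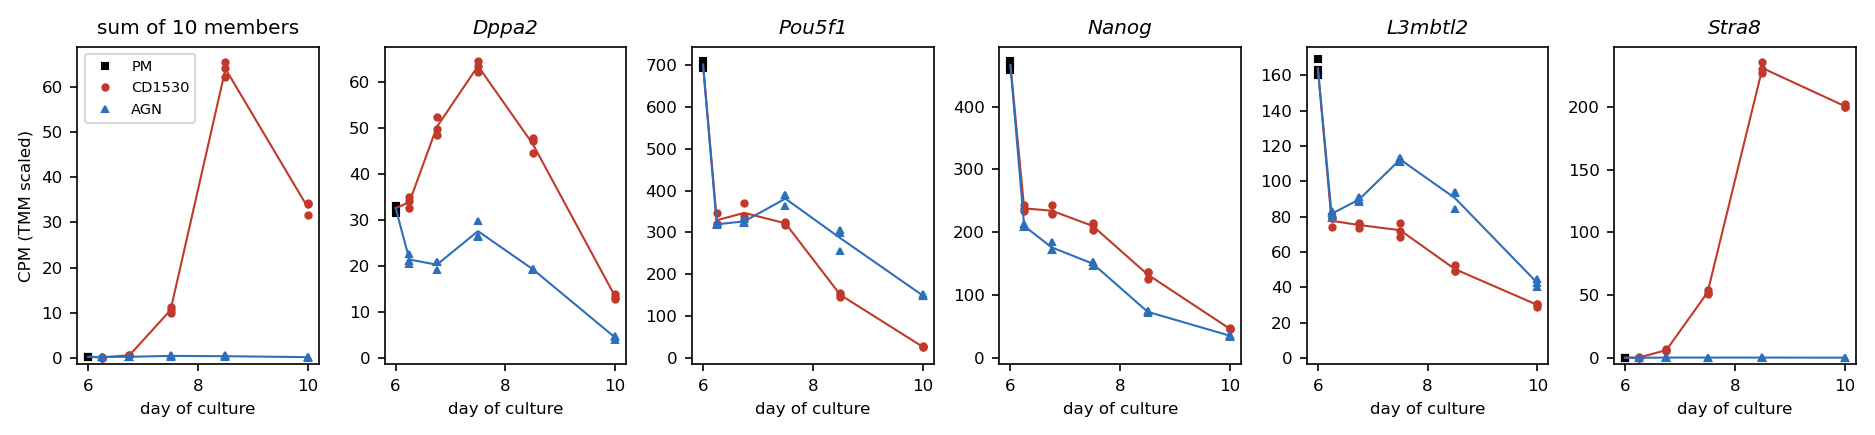
CPM (TMM scaled, linear axes that differ between panels) against the day of culture for the sum of the 10 genes, the activator Dppa2, the pluripotency genes Pou5f1 and Nanog, the repressor L3mbtl2 and Stra8, with 1 point per library and lines through group means. Pou5f1, Nanog and L3mbtl2 are highest in PM, Dppa2 under CD1530 at D7.5, and the 10 genes and Stra8 under CD1530 at D8.5.

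The pluripotency genes had another course than the 10 genes. All 10 of that list were measured, and their summed level was 3740 to 3760 CPM in PM and 1020 to 1050 CPM under CD1530 against 1170 to 1210 CPM under AGN on D8.5. By D10 it was 369 to 378 CPM under CD1530 against 584 to 605 CPM under AGN, with no gene of the list at 0. In CD1530, 10 of 10 were lower at D8.5 than in PM, where 36.2% of all genes were called lower. Between the conditions at D8.5, 5 were higher and 4 lower under CD1530, beside 20.4% and 19.6% of all genes, and Klf2 did not pass. Nanog was at 133 ± 7.0 against 73.3 ± 2.2 CPM (adjusted p = 3.63e-21), Tfcp2l1 at 55.7 ± 1.7 against 28.0 ± 2.5 CPM (adjusted p = 2.95e-07), Pou5f1 at 151 ± 4.5 against 286 ± 26.0 CPM (adjusted p = 4.32e-20) and Utf1 at 132 ± 3.4 against 256 ± 1.8 CPM (adjusted p = 4.84e-20). The part of cells still expressing these genes in the levels of the 10 genes was not tested.

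Checks of cell identity put these cultures in context. The PM markers Tbx6 and Msgn1 were at 9.56 ± 0.77 and 3.38 ± 0.61 CPM in PM and at 0.249 ± 0.22 and 0.0197 ± 0.034 CPM under CD1530 at D8.5, while Hes7 was at 0.573 ± 0.25 and 0.619 ± 0.12 CPM. Meox1, checked beside them, went the other way. From PM to D8.5 it rose by log2 4.47 ± 0.07 (SE) under CD1530 and 4.33 ± 0.07 under AGN. Scx, the tendon factor, was at 1190 ± 14 CPM under CD1530 and 1700 ± 30 CPM under AGN at D8.5, and the cartilage collagen gene Col2a1 at 300 ± 8.9 and 936 ± 20 CPM.

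Retinoid targets and germ cell genes were higher under CD1530 together with the 10 genes. Of 9 retinoid targets, 7 were higher at D6.25 and 9 on each later day, beside 1.23%, 7.94%, 15.2%, 20.4% and 22.7% of all genes. They were called up to 2 sampling days before most of the 10 genes separated. Their summed level under CD1530 went on from 819 to 857 CPM at D8.5 to 1450 to 1470 CPM at D10. On this step 7 of 9 were called higher and 2 lower, beside 27.4% and 29.9% of all genes. The libraries of D10 lay below those of D8.5 for 10 of 10 members, as for 34.1% of all genes, and the members had been chosen by their course. A call by test and a separation of libraries are unlike measures, so neither which came first nor a difference in this step was tested. At D8.5, Hoxb1 was at 38.3 ± 0.7 against 0.0863 ± 0.078 CPM, Rarb, the retinoic acid receptor beta, at 24.9 ± 1.2 against 0.124 ± 0.063 CPM and Dhrs3, a retinaldehyde reductase, at 122 ± 4.3 against 3.69 ± 0.16 CPM.

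Of 11 germ cell and meiosis genes, 10 were higher under CD1530 at D8.5, beside 20.4% of all genes, and at D10 8 were higher and 1 lower, beside 22.7% and 24%. Their summed levels at D8.5 were 400 to 411 CPM under CD1530 and 72.0 to 76.9 CPM under AGN, with no gene at 0, beside 145 to 155 CPM in PM. Stra8 alone supplied 227 to 236 CPM of the sum under CD1530. From PM to D8.5 under CD1530, 8 of the 11 were called higher and 2 lower, beside 41.2% and 36.2% of all genes. Stra8, the gatekeeper of meiosis and a retinoid target itself, was at 230, 227 and 236 CPM under CD1530 and 0.271, 0.357 and 0.053 CPM under AGN at D8.5, 967 times higher (612 to 1630). It was called at D6.75 (log2 4.63 ± 0.23, adjusted p = 7.38e-20), a sampling day before most of the 10 genes separated, and from D8.5 to D10 its ratio was 0.87 (0.848 to 0.893), less of a drop than the 0.521 of the summed members. The call and the separation are again unlike measures. Rec8, a meiotic cohesin, was at 40.0 ± 1.2 against 6.35 ± 1.2 CPM at D8.5 and rose to 79.9 ± 0.48 CPM at D10, and Tex11 was at 8.12 ± 0.49 against 2.38 ± 0.4 CPM. The part of germ-like cells in the levels of the 10 genes was not tested.

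Trophoblast and primitive endoderm genes, which mark other early lineages, were mixed, with 4 of the 9 in the table higher and 2 lower under CD1530 at D8.5, beside 20.4% and 19.6% of all genes. Their summed level overlapped between the conditions, at 80.7 to 86.0 CPM under CD1530 and 84.1 to 88.0 CPM under AGN, none of the 9 was at 0, and their part in the levels of the 10 genes was not tested. At D6.25, 1 of the 9 (Sox17) was lower, beside 0.695% of all genes. Esx1 was at 3.71 ± 0.39 against 0.928 ± 0.12 CPM, Gata4 at 3.13 ± 0.14 against 1.81 ± 0.51 CPM and Ascl2 at 2.51 ± 0.3 against 10.2 ± 0.31 CPM.

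The genes whose course was most like that of the summed members were found from log2(CPM + 1) over the 11 group means, as a description of points that share libraries and depth. The 8 nearest were Gm14569 (r = 0.9936), Gm5662 (0.9916), Gm2016 (0.9815), Zscan4-ps3 (0.9813), Gm21939 (0.98), Gm8332 (0.9799), Gm21037 (0.9776) and Gm5039 (0.9747), and each was highest under CD1530 at D8.5. Gm5662, Gm2016 and Gm5039 belong to the list of other 2-cell-like genes above. Of the 8, 5 (Gm5662, Gm2016, Gm21939, Gm8332 and Gm5039) lie on chromosome 12, Gm14569 on the X chromosome, and Zscan4-ps3 and Gm21037 on chromosome 7. Stra8 was next in line, at 0.9737. The members themselves had r of 0.9663 (Usp17la) to 0.9951 (Zscan4a) with the sum that contains them. Gm5662 was at 4.91, 3.94 and 4.83 CPM under CD1530 and 0.0542, 0.102 and 0 CPM under AGN at D8.5, and Gm5039 at 6.87, 5.48 and 6.78 against 0.433, 0.713 and 0.265 CPM.

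Genes beside the clusters did not share the course. Leaving out the family relatives, the table held 17 genes within 500 kb of a member. At D8.5, 6 of the 17 were called, 1 higher and 5 lower under CD1530, or 35.3% beside 40% of all genes, and their median log2 difference was -0.07. Gm4887, a processed pseudogene 18.0 kb from Usp17lb, had a log2 difference of 0.07 ± 0.17 (adjusted p = 0.79), and Gm4157, 53.0 kb from Zscan4d and within the Zscan4 cluster, one of 0.29 ± 0.32 (adjusted p = 0.512). The called ones were the embryonic globin genes Hbb-y (log2 -1.05 ± 0.11, adjusted p = 1.86e-10) and Hbb-bh1 (log2 -0.87 ± 0.11, adjusted p = 8.01e-08) and the Trim genes Trim5, Trim12a, Trim12c (log2 -0.75 to -0.24) and Trim30d (log2 0.32 ± 0.12, adjusted p = 0.0325). The Trim30d call was lost when any library of D8.5 other than AGN replicate 2 was left out (adjusted p 0.0515 to 0.1), and the Trim5 call without AGN D8.5 replicate 1 (adjusted p = 0.132). The remaining 9 that were not called were Zik1, Trim30a, Trim34b, Gm16464, Dnajc19-ps, Gm6900, Gm5900, Gm6593 and Gm6929.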

How the data were processed

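The authors aligned paired reads to GRCm38 with STAR, counted read pairs per gene with featureCounts and deposited raw counts for 33 libraries. The annotation release, strand setting and handling of reads matching several genes are not given in the sources used here. The study names the 3 samples of a group biological replicates, and p-values measure only the spread between them. All libraries entered 1 edgeR 4.0.16 fit (R 4.3.3, TMM, robust quasi-likelihood test) with a mean per group. Benjamini-Hochberg adjusted p-values cover all 17120 genes, and those under 0.05 were called. The 0.05 threshold, lists and members were chosen with earlier results of these data known. Named were all members, the 3 called genes of each list with the largest log2 difference at D8.5, genes whose role asked for it, the 8 most alike genes, neighbours within 500 kb, cell identity markers and, after their values were seen, members of counts of 5 or fewer. Of the gene IDs, 17117 matched GENCODE M21. Ratio intervals are exact binomial intervals (SciPy 1.17.1), and identities are global alignments (Biopython 1.88). Of the steps, only the edgeR fit was tested on simulated data, for CD1530 against AGN at D8.5 and with no change placed in genes of low mean CPM. Alternatives were DESeq2 1.42.0, other scalings, a count filter, a replicate block, fits of the compared groups only and leaving out libraries.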

Additional observations from a re-analysis of the deposited data

Results flagged for a closer look

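The step from D8.5 to D10 differed between CD1530 and AGN for 17 of the 65 named genes outside the members that were checked (edgeR interaction test, adjusted p over all genes under 0.05). This share is similar to that of all genes, 26.8%, with 12.7% positive and 14.1% negative. Some of the genes were named for their difference at D8.5, which is part of the interaction, or after their values were seen. Each value is the CD1530 step minus the AGN step on the log2 scale, and the steps of the 10 members were not tested because they had been chosen by their course.

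Among regulators of the 2-cell-like state, Dppa2 differed by 0.33 ± 0.11 (SE, adjusted p = 0.0278), with a step of -1.8 in CD1530 and -2.13 in AGN. L3mbtl2 differed by 0.35 ± 0.072 (adjusted p = 0.000285), with steps of -0.74 and -1.09. Both genes thus fell in each condition, and less in CD1530. The repressors Kdm1a (difference -0.17 ± 0.055, adjusted p = 0.0175) and Zmym2 (-0.19 ± 0.071, adjusted p = 0.0426) had lower steps in CD1530, at -0.37 and -0.24, than in AGN, at -0.19 and -0.05.

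Among pluripotency genes, Pou5f1 differed by -1.56 ± 0.072 (adjusted p = 3.01e-20), Utf1 by -0.73 ± 0.076 (adjusted p = 4.36e-10) and Nanog by -0.46 ± 0.062 (adjusted p = 1.58e-07). All 3 fell in both conditions and more in CD1530, where the steps were -2.5, -2.22 and -1.52.

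Rarb rose in both conditions and less in CD1530 (difference -1.86 ± 0.44, adjusted p = 0.00116), and its AGN libraries of D8.5 held 10 counts in all. Tex11 differed by 1.07 ± 0.29 (adjusted p = 0.00517), Ascl2 by 0.8 ± 0.23 (adjusted p = 0.00773) and Esx1 by 1.54 ± 0.36 (adjusted p = 0.0012), with steps of 0.95 in CD1530 and -0.59 in AGN for Esx1.

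Among genes beside the clusters, Zik1 differed by 0.39 ± 0.13 (adjusted p = 0.0168), Trim30a by -0.58 ± 0.086 (adjusted p = 1.12e-06), Trim30d by -0.55 ± 0.16 (adjusted p = 0.00713) and Hbb-y by 0.61 ± 0.21 (adjusted p = 0.0293).

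The cartilage collagen gene Col2a1 differed by -2.46 ± 0.061 (adjusted p = 1.8e-29), with steps of -1.05 in CD1530 and 1.42 in AGN. The endoderm gene Sox17 differed by 0.9 ± 0.23 (adjusted p = 0.00316), with steps of -0.06 and -0.96.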

How the results depend on the processing

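Of 199 alternative values of counts and sums, 191 stayed within 1.5 times or 1 SD. With the compared groups only, an alternative added after seeing the data, 820 genes were called between CD1530 and AGN at D6.25 in place of 329, and 1236 at D6.75 in place of 3076, and the cause was not tested. Leaving out 1 library gave 196 to 276 at D6.25, with 218 and 214 without CD1530 replicates 1 and 3 and 200 and 196 without AGN replicates 1 and 3, and these fits hold fewer libraries. For other 2-cell-like genes from D8.5 to D10 in CD1530 it gave 7 to 10 of 14 in place of 11. With library size only, D10 over D8.5 of the summed members was 0.488 in place of 0.521, and from 0.512 to 0.534 with 1 library left out.

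Of 1558 values of named genes, 1491 kept direction and side, 21 lost and 14 gained a call and 32 changed sign. The sign changes were in genes that were not called. With library size only, Gm6929 at D8.5 and Gm16464 at D10 were each at 0.02 and Zmym2 at D10 at 0.01, with DESeq2 size factors or its test Trp53 at D10 was at -0.01, and with the compared groups only Gm16464 at D10 was at 0. With 1 library left out, log2 differences at D8.5 ran from -0.11 to 0.01 for Dnajc19-ps, -0.01 to 0.13 for Gm4887, -0.78 to 0.72 for Trim34b, -0.01 to 0.08 for Gm6900, -0.11 to 0.06 for Gm6929 and -0.03 to 0.65 for Gm4157. At D10 they ran from -0.11 to 0.07 for Gm16464, -0.35 to 0.2 for Gm6929, -0.21 to 0.18 for Gm4157, -0.02 to 0.03 for Trp53, -0.41 to 0.11 for Hes7, -0.76 to 0.05 for Tbx6 and -2.94 to 1.99 for Msgn1.

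Same-numbered libraries did not deviate together (r from -0.132 to 0.23, in no comparison all over 0.1), so the numbers do not pair them. A replicate block gave 6789 calls at D8.5 in place of 6845 and 7914 at D10 in place of 7980. Counts near 0 in PM and AGN limit member folds to wide intervals or bounds.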
